A study of Solanum lycopersicum with 6 samples.

Results

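Histone genes of tomato were examined in fruit wall (pericarp) from plants carrying a JMJ6 overexpression transgene (JMJ6-OE) and from wild-type plants (WT). Both genotypes are in the Ailsa Craig background and were sampled at 37 days after anthesis, with 3 mRNA sequencing libraries each. JMJ6 is a histone demethylase, described in the series' title as one that removes methyl groups from lysine K27 of histone H3. The promoter of the transgene is not given in the sources used here, nor is whether the 3 libraries of a genotype came from separate plants or lines, and the p-values below reflect the spread among libraries only, which may be technical. A gene counted as a histone gene if its deposited description names histone H1, H2A, H2B, H3 or H4 and names no methyltransferase, demethylase, acetyl group, kinase or chaperone. This took 91 of the 36224 rows of the deposited table: 6 linker histone H1 rows, 30 H2A, 16 H2B, 23 H3 and 16 H4 rows.

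Core histones H2A, H2B, H3 and H4 form the protein spool around which DNA is wound in a nucleosome, and H1 binds the linker DNA between nucleosomes and helps to compact chromatin. Each class is encoded by a family of genes, many of them nearly identical. Canonical core histones are made mainly while DNA replicates, whereas variants such as H3.3 are also made outside that phase and can replace them. In plants histone mRNAs carry poly(A) tails, so mRNA libraries can hold them. Near-identical copies may share reads, and how such reads were counted is not given in the sources used here, so the value of a single gene of a family is less certain than that of its class.

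The libraries held 30508225 to 36299263 counts in JMJ6-OE and 28539410 to 36487547 in WT. The row taken as JMJ6 (Solyc06g008490.3) stood at 31.5, 37.4 and 41.3 CPM in JMJ6-OE against 27.0, 23.5 and 25.5 CPM in WT, where CPM are counts scaled to a library of 1e+06 after TMM scaling. This row is described as JMJ16 and was matched only by its chromosome, 6, so its identity is uncertain. By edgeR's quasi-likelihood test its log2 fold change of JMJ6-OE over WT was 0.54 ± 0.12 (SE), with a Benjamini-Hochberg adjusted p of 0.014. Transcript of ripening genes was far higher in JMJ6-OE: polygalacturonase PG2, which degrades pectin, averaged 4345 ± 663 CPM in JMJ6-OE and 44.6 ± 7.06 CPM in WT (SD, n = 3 each). Effects of the transgene and of a more advanced ripening stage cannot be told apart at equal fruit age. Nor can fewer cells of a type and less RNA per cell be told apart in tissue samples.

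Most histone genes did not pass the test of a difference, in tissue where many other genes did. Of the 91 rows, 32 had no count in any library, 6 had too few counts to be tested and 53 were tested. A gene is called here where its adjusted p, over all 20143 tested genes, is under 0.05. Of the 53 tested histone genes, 3 were called higher and 4 lower in JMJ6-OE, that is 13.2%, while of all tested genes 34.3% were called, 17.5% higher and 16.8% lower. The median log2 fold change was -0.07 over the tested histone genes and -0.01 over all tested genes. The CPM ranges of JMJ6-OE and WT were separate for 15 of the 53 histone genes, or 28.3%, and for 51.4% of all tested genes.

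An uncalled gene is not shown to be equal, so the 95% intervals of the fold changes were examined as well. For 41 of the 53 histone genes, or 77.4%, the interval lay within 2-fold in either direction, a share that was 59.7% over all tested genes. Among the 46 uncalled histone genes 38 had such an interval. By level, 1 of 4 histone genes with a mean under 1 CPM was called, against 20.6% of all genes at that level. From 1 to 10 CPM 2 of 16 were called, against 28.5% of all genes. From 10 to 100 CPM 3 of 26 were called, against 38.2%, and above 100 CPM 1 of 7, against 46.8%.

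The number of calls depended on single libraries, for histone genes and for all genes. Without JMJ6-OE replicate 2 or without JMJ6-OE replicate 3, 3 histone genes were called each time, without WT replicate 2 there were 4, and without JMJ6-OE replicate 1 there were 10. Of all tested genes, 19.9%, 23.2%, 23.0% and 39.5% were called in these 4 fits, in the same order, against 34.3% with all libraries. The share of histone genes called was below that of all tested genes in each of the 15 fits. Scaling mattered too. With libraries scaled to their total counts, an alternative added after the data were seen, the median of all genes moved by -0.19 on the log2 scale, and 1 histone gene was called higher and 9 lower. For all genes that scaling gave 2230 higher and 4950 lower, against 3517 and 3394 with TMM.

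**Figure D1:**
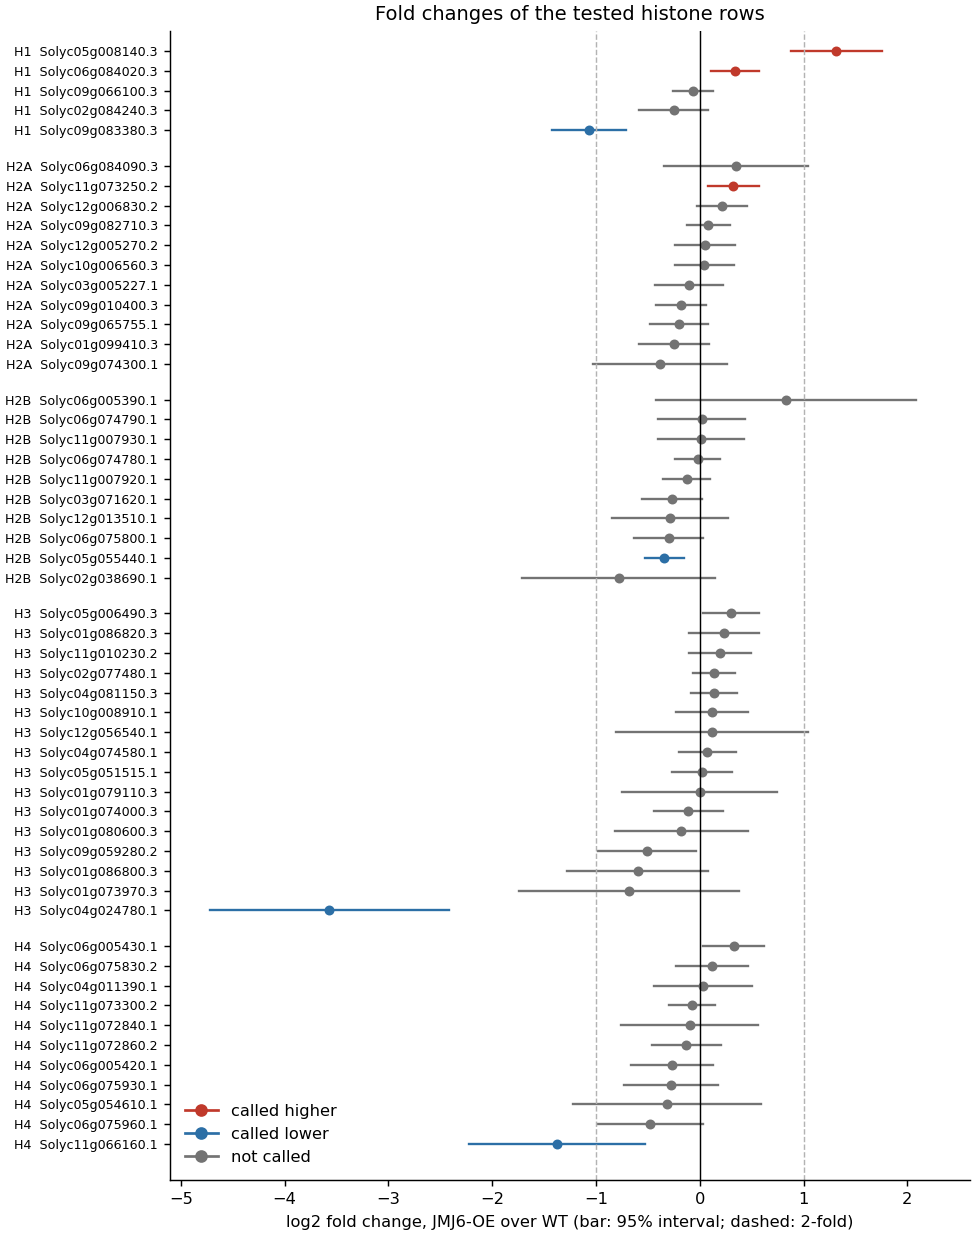
Log2 fold change of JMJ6-OE over WT for the 53 tested histone genes, one line per gene, grouped by class; points are edgeR estimates and bars 95% intervals, with dashed lines at 2-fold. Most bars cross 0 and lie inside the dashed lines. The 3 genes called higher are red and the 4 called lower are blue, and the H1 class holds 3 of these 7.

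Linker histone genes made up 3 of the 7 calls, and they went in both directions. Of the 6 H1 rows 5 were tested, 2 were called higher and 1 lower in JMJ6-OE. Solyc06g084020.3 had the highest level per length of all histone genes, at 654 ± 66.9 FPKM in JMJ6-OE and 586 ± 22.7 FPKM in WT (SD, n = 3 each). Its deposited symbol is that of Arabidopsis At1g06760, one of the main H1 genes of that plant. The same symbol is given to Solyc02g084240.3 and Solyc09g066100.3, neither of which was called. Solyc06g084020.3 stood at 464, 419 and 446 CPM in JMJ6-OE, against 368, 348 and 332 CPM in WT. All 3 JMJ6-OE libraries lay above all 3 WT libraries, and the log2 fold change was 0.34 ± 0.10 (SE, adjusted p = 0.032). This call was lost in 7 of 14 alternatives, among them the fits without WT replicate 2 or 3 and without JMJ6-OE replicate 2 or 3, with adjusted p between 0.0014 and 0.26 over the alternatives.

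The 2 other H1 calls were larger and held in all 14 alternatives. Solyc05g008140.3, described as H1-I-like, had 10.94, 14.12 and 10.97 CPM in JMJ6-OE against 4.06, 4.61 and 5.77 CPM in WT. Its log2 fold change was 1.32 ± 0.19 (SE, adjusted p = 0.0023), a 2.49-fold higher level in JMJ6-OE. Solyc09g083380.3, which carries the symbol of Arabidopsis At2g30620, the other main H1 gene of that plant, had 30.4, 20.7 and 27.2 CPM in JMJ6-OE against 59.7, 54.3 and 50.05 CPM in WT. Its log2 fold change was -1.07 ± 0.15 (SE, adjusted p = 0.0023). Neither gene's groups overlapped, and these genes lie at opposite ends of the H1 class.

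The remaining H1 genes did not pass the test. Solyc02g084240.3 stood at 201, 177 and 208 CPM in JMJ6-OE and 272, 238 and 190 CPM in WT (log2 fold change -0.25 ± 0.14, SE, adjusted p = 0.21). It was called lower only with total-count scaling (adjusted p = 0.047; 0.047 to 0.48 over its alternatives). Solyc09g066100.3 averaged 104.9 ± 4.91 CPM in JMJ6-OE and 109.7 ± 6.90 CPM in WT, with overlapping groups. The sixth row, on chromosome 6 by its identifier, had no count in any library.

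Summed over the class, H1 transcript was 781 ± 41.6 CPM in JMJ6-OE and 751 ± 69.3 CPM in WT (SD, n = 3 each), with overlapping groups, while its make-up differed. Solyc06g084020.3 held 56.7 ± 0.37% of H1 CPM in JMJ6-OE and 46.6 ± 1.92% in WT. Solyc09g083380.3 held 3.33 ± 0.46% in JMJ6-OE and 7.28 ± 0.048% in WT, and Solyc05g008140.3 held 1.55 ± 0.32% in JMJ6-OE and 0.651 ± 0.18% in WT. These shares are taken within a library and do not depend on its scaling. The ratio of Solyc06g084020.3 to Solyc09g083380.3 in FPKM was 15.5, 20.5 and 16.6 in the JMJ6-OE libraries and 6.25, 6.49 and 6.72 in the WT libraries.

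**Figure D2:**
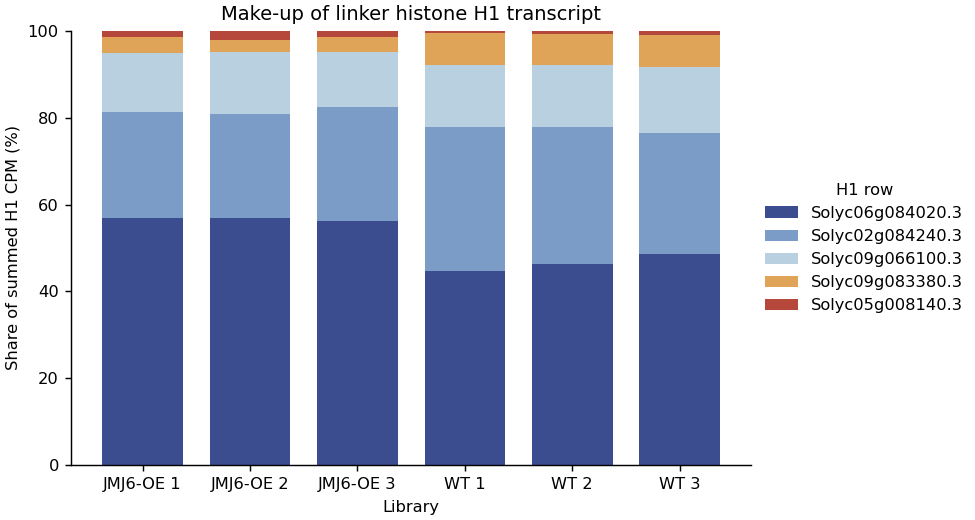
Share of each H1 gene in the summed H1 CPM of a library, in percent, for the 3 JMJ6-OE libraries and then the 3 WT libraries. Solyc06g084020.3 (dark blue) takes 56.7% on average in JMJ6-OE and 46.6% in WT, while Solyc09g083380.3 (orange) takes 3.33% in JMJ6-OE and 7.28% in WT.

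Relative to the core histones, summed H1 transcript was higher in every JMJ6-OE library than in any WT library. The ratio of summed H1 to summed core histone FPKM was 0.391, 0.373 and 0.378 in JMJ6-OE, against 0.338, 0.337 and 0.339 in WT. Core histones were counted here without the rows described as H3.v1, which are treated further on. From counts the ratio was 0.541, 0.510 and 0.513 in JMJ6-OE and 0.486, 0.486 and 0.480 in WT, again without overlap. Without Solyc06g084020.3 the order turned round: the FPKM ratio was 0.124, 0.117 and 0.122 in JMJ6-OE and 0.148, 0.143 and 0.136 in WT. The higher ratio in JMJ6-OE therefore rested on this gene, whose own call was among those lost in several fits. No test is given for these ratios, since the genes were grouped with earlier results known.

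Few of the core histone genes, those of the 4 nucleosome classes, were called. Without the H3.v1 rows, 46 core histone genes were tested, 1 was called higher and 2 lower, or 6.52%, and the interval lay within 2-fold for 37 of them. Their summed CPM was 1499 ± 51.5 in JMJ6-OE and 1551 ± 134 in WT (SD, n = 3 each), with overlapping groups. In deposited FPKM, which carry no TMM scaling, the sum was 2515 ± 198 in JMJ6-OE and 3003 ± 216 in WT, without overlap. The sum was lower in JMJ6-OE on both scales, and whether the groups overlapped differed between them.

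**Figure D3:**
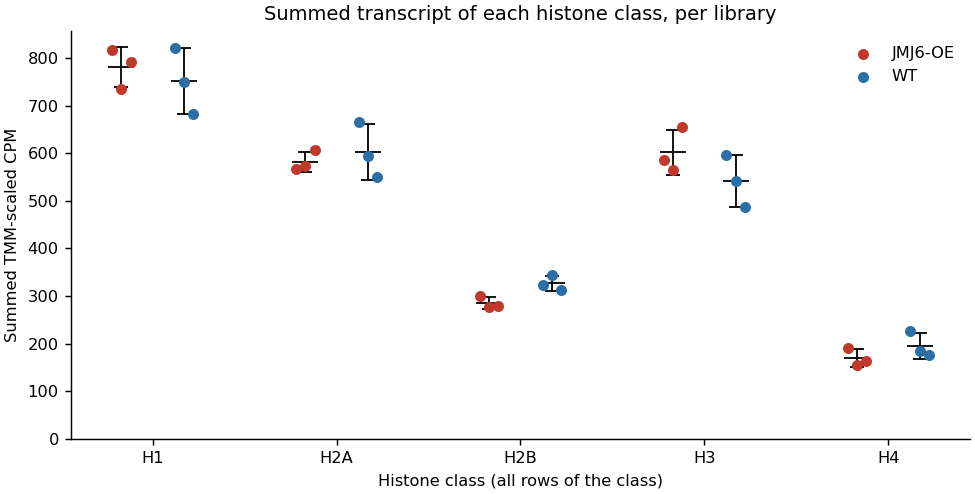
Summed CPM of all genes of each histone class in each library, with points for libraries and bars for the mean and SD, JMJ6-OE left and WT right in each pair. The groups overlap in H1, H2A, H3 and H4. H3 includes the H3.v1 rows here, with a ratio of JMJ6-OE to WT of 1.11. Without those rows the ratio is 1.08 and the groups overlap as well. In H2B the JMJ6-OE libraries lie at 277 to 301 CPM and the WT libraries at 312 to 344 CPM.

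In the H2A family 11 of 30 rows were tested and 1 was called. Solyc11g073250.2, described as an H2A isoform, had 59.5, 66.7 and 70.8 CPM in JMJ6-OE against 47.4, 57.2 and 52.6 CPM in WT, without overlap. Its log2 fold change was 0.32 ± 0.11 (SE, adjusted p = 0.048), and the call was lost in 10 of 14 alternatives, with adjusted p of 0.021 to 0.34 over them. The H2A gene with the highest CPM, Solyc09g065755.1, is described as H2A variant 1. It had 154, 156 and 169 CPM in JMJ6-OE and 215, 172 and 165 CPM in WT, a difference that did not pass the test (log2 fold change -0.20 ± 0.12, SE, adjusted p = 0.23). Next came Solyc09g010400.3 at 104, 98.4 and 99.7 CPM in JMJ6-OE and 130, 111 and 102 CPM in WT (-0.19 ± 0.10, SE, adjusted p = 0.20). In both, WT replicate 1 was the highest library and the groups overlapped, and both were called lower with total-count scaling (adjusted p = 0.024 for the first, 0.032 for the second, and up to 0.43 and 0.41 over the other alternatives).

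Variants within H2A gave no call. H2A.X, whose phosphorylated form marks DNA breaks, is named for 3 rows, all tested, with a summed level of 78.8 ± 4.70 CPM in JMJ6-OE and 80.0 ± 6.8 CPM in WT (SD, n = 3 each). The 3 rows described only as numbered H2A variants were also tested without a call and summed to 201 ± 9.83 CPM in JMJ6-OE and 219 ± 28.2 CPM in WT. Both sums overlapped between the groups. Of the H2A rows 18 had no count in any library, which allows at most 0.075 to 0.11 CPM in a library, the level of 3 counts. All 5 rows described as H2A-beta, sperm-like, were among these. By their identifiers 15 of the rows without a count lie on chromosome 5 and 3 on chromosome 11. From Solyc05g014800 to Solyc05g014940, 13 of 13 H2A rows had no count. Over all genes, 10890 of 36224 rows had no count in any library, against 18 of 30 H2A rows. The CPM limit above covers only reads that were counted. How reads shared by near-identical copies were counted is not given, so whether these H2A rows are transcribed was not tested.

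H2B was the class whose summed CPM, after TMM scaling, did not overlap between the groups. In deposited FPKM, which carry no TMM scaling, the H2B and the H2A sums were both without overlap. The H2A sum was 781 to 835 FPKM in JMJ6-OE and 854 to 998 FPKM in WT. In CPM the H2B sum was 301, 277 and 279 in JMJ6-OE, against 323, 344 and 312 in WT, a ratio of 0.875. Of 10 tested genes 1 was called, Solyc05g055440.1, described as H2B.3. It had 87.0, 87.3 and 83.6 CPM in JMJ6-OE against 106, 117 and 104 CPM in WT, a log2 fold change of -0.34 ± 0.08 (SE, adjusted p = 0.015). The call was lost without JMJ6-OE replicate 2 or 3, with adjusted p of 0.0020 to 0.063 over the alternatives.

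The other abundant H2B.3 gene, Solyc11g007920.1, stood at 98.3, 82.1 and 84.2 CPM in JMJ6-OE and 96.8, 101 and 91.0 CPM in WT and was not called (-0.13 ± 0.10, SE, adjusted p = 0.35). JMJ6-OE replicate 1 lay among the WT libraries. The remaining H2B genes with counts ranged from log2 fold changes of -0.78 to 0.83, both ends being genes with a mean below 3 CPM in each group. Estimates were negative for 7 of the 10 genes, and for 10284 of all 20143 tested genes. A further 6 H2B rows had no count, with at most 2 of them on any chromosome.

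H3 genes divide by description mainly into H3.2, in animals a name for an H3 made along with DNA replication, and the replacement form H3.3, and neither gave a call. The H3.2 description covers 11 rows, of which 10 were tested, with a median log2 fold change of -0.05. Summed, they were 72.9 ± 8.15 CPM in JMJ6-OE and 71.6 ± 0.939 CPM in WT (SD, n = 3 each). H3.3, which in plants is placed on DNA independently of replication, is described for 4 rows, all tested. Their sum was 369, 375 and 422 CPM in JMJ6-OE and 404, 350 and 311 CPM in WT, so that the groups overlapped.

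The most abundant H3.3 gene, Solyc11g010230.2, had 195, 198 and 223 CPM in JMJ6-OE and 208, 176 and 154 CPM in WT (log2 fold change 0.20 ± 0.13, SE, adjusted p = 0.27). Intervals lay within 2-fold for 4 of 4 H3.3 genes and 7 of 10 H3.2 genes. Per length, H3.3 transcript exceeded H3.2 transcript in every library, with FPKM ratios of 3.22, 4.11 and 4.12 in JMJ6-OE and 4.10, 3.50 and 3.14 in WT. The ranges of this ratio overlapped.

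The centromeric H3 HTR12, which marks centromeres and is loaded in dividing cells, was close to absent. Of its 2 rows 1 had no count, and Solyc01g095650.3 had 7, 2 and 0 counts in JMJ6-OE and 0, 6 and 6 counts in WT, which was too few to be tested. Whether its level differed between the groups was therefore not tested.

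A further 6 rows are described as H3.v1, and whether they encode histones was not tested. Solyc05g006490.3 carries the symbol WDL7, a name of microtubule-binding WAVE-DAMPENED2-like proteins and not of a histone. It had 136, 126 and 159 CPM in JMJ6-OE and 121, 119 and 102 CPM in WT, without overlap, but did not pass the test (log2 fold change 0.30 ± 0.12, SE, adjusted p = 0.083). Solyc04g024780.1, described as H3.v1-like, was called lower. It had 6, 3 and 3 counts in JMJ6-OE against 39, 44 and 89 counts in WT, or 0.19, 0.09 and 0.11 CPM against 1.32, 1.10 and 2.29 CPM. Its log2 fold change of -3.57 ± 0.49 (SE, adjusted p = 0.0021) was the lowest of all histone rows, and the call held in all 14 alternatives, but 2 of the JMJ6-OE libraries stood at the floor of 3 counts. Of the other 4 rows 1 had no count and 3 had too few counts to be tested, with Solyc04g028460.1 and Solyc04g011735.1 at 0 in all JMJ6-OE libraries and at no more than 10 counts in any WT library.

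Among H4 genes most estimates were negative and 1 passed the test. Of 11 tested genes 8 had a negative estimate, as did 10284 of all 20143 tested genes. The median log2 fold change of the H4 genes was -0.13. Solyc06g075960.1, of high level per length, had 52.6, 35.9 and 35.9 CPM in JMJ6-OE and 73.5, 51.3 and 48.6 CPM in WT (-0.48 ± 0.21, SE, adjusted p = 0.13). JMJ6-OE replicate 1 lay above 2 of the WT libraries, and without it the gene was called (log2 fold change -0.68, adjusted p = 0.032; 0.013 to 0.31 over its alternatives). Solyc11g073300.2 had 45.5, 43.8 and 45.6 CPM in JMJ6-OE and 52.7, 44.5 and 44.8 CPM in WT, with overlapping groups (-0.07 ± 0.09, SE, adjusted p = 0.58). The called gene, Solyc11g066160.1, is a minor one, at 1.86, 0.80 and 1.08 CPM in JMJ6-OE against 2.5, 3.16 and 4.02 CPM in WT. Its log2 fold change was -1.37 ± 0.36 (SE, adjusted p = 0.024), and the call was lost in the 4 fits without WT or JMJ6-OE replicate 2 or 3 (adjusted p of 0.0038 to 0.081 over all alternatives).

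Replicate 1 was the highest library of its group for most H4 genes, in 8 of 11 within JMJ6-OE and in 9 of 11 within WT. Of all 20143 tested genes, 7082 (35.2%) were highest in JMJ6-OE replicate 1 within JMJ6-OE, and 7564 in WT replicate 1 within WT. The H4 sum was 191, 154 and 163 CPM in JMJ6-OE and 226, 184 and 176 CPM in WT. What sets these libraries apart was not tested. The ratio of H4 to H3 in summed FPKM, with the H3.v1 rows left out, was 0.543, 0.433 and 0.403 in JMJ6-OE. It was 0.627, 0.552 and 0.568 in WT, without overlap.

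**Figure D4:**
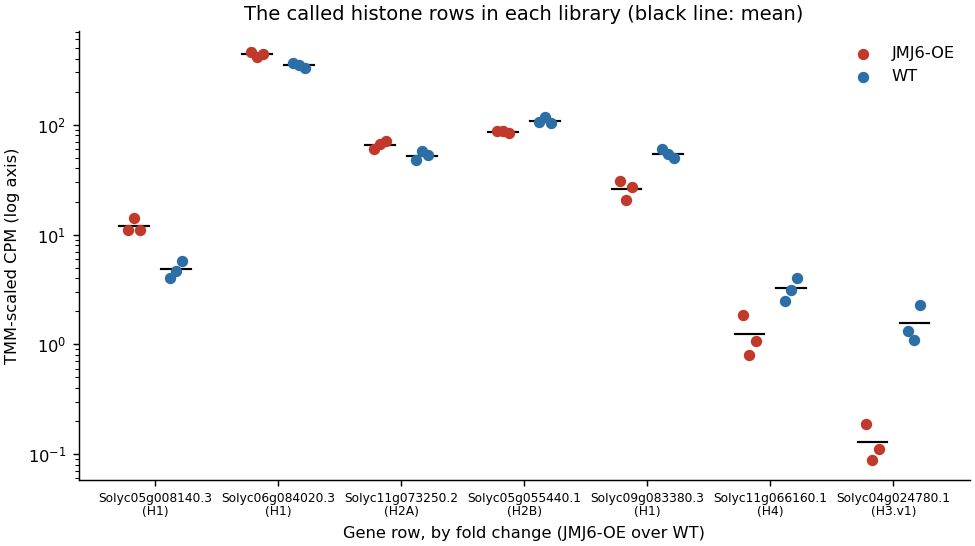
CPM of the 7 called histone genes in each library on a log axis, ordered by fold change, with JMJ6-OE left and WT right in each pair and black lines for means. The groups do not overlap in any of the 7. Levels span from 464 CPM for Solyc06g084020.3 in a JMJ6-OE library to 0.09 CPM for Solyc04g024780.1 in another.

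By the false discovery rate in the authors' deposited table, 7 of the 91 histone genes had a value under 0.05, 3 higher and 4 lower. Of all 36224 rows, 7673 had such a value. All 7 histone genes are among the 7 called here. That table rests on the same libraries.

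Genes that handle histones or work beside them were counted by lists taken from their descriptions. Histone chaperones carry histones to and from DNA. Of 19 tested chaperone and assembly genes 2 were called higher and 1 lower, or 15.8%, with a median log2 fold change of 0.08. Solyc06g062690.3, with the symbol NAP1;1 but described as nucleosome assembly protein 1;4, belongs to the NAP1 family that binds H2A and H2B. It was higher, at 13.8 ± 2.70 CPM in JMJ6-OE and 3.72 ± 0.658 CPM in WT (SD, n = 3 each, log2 fold change 1.89, adjusted p = 8.7e-04). NAP1;2 (Solyc05g018810.3), of the same family and far more abundant, was lower, at 176 ± 15.4 CPM in JMJ6-OE and 255 ± 27.8 CPM in WT (-0.53, adjusted p = 0.012). Leaving out JMJ6-OE replicate 2 ended the call of Solyc05g018810.3 (adjusted p = 0.059, with 1.9e-04 to 0.059 over all alternatives). The other tested NAP1 rows, named after their values were seen, had negative estimates and were not called. Solyc03g121700.3, also described as 1;4, stood at 94.8 ± 3.77 CPM in JMJ6-OE and 113 ± 14.6 CPM in WT (-0.25, adjusted p = 0.11). Of rows with the symbol NAP1;2, Solyc12g008940.2 had -0.25 (adjusted p = 0.057) and Solyc08g063000.3 had -0.03 (adjusted p = 0.87). A gene described as SPT16 (Solyc10g006770.3), a subunit of the FACT complex that moves nucleosomes aside for polymerases, was higher, at 49.6 ± 7.67 CPM in JMJ6-OE and 34.0 ± 1.38 CPM in WT (0.55, adjusted p = 0.014). Leaving out replicate 2 of either genotype ended this call, with adjusted p of 0.0013 to 0.061 over the alternatives. The other 3 rows described as SPT16, named after their values were seen, were not called. They include the more abundant Solyc01g101020.3, at 161 ± 10.7 CPM in JMJ6-OE and 145 ± 6.04 CPM in WT (adjusted p = 0.21), and Solyc02g081590.3, at 116 ± 9.21 CPM in JMJ6-OE and 108 ± 6.99 CPM in WT (adjusted p = 0.43).

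Genes of H2A.Z exchange and chromatin remodelling gave 1 call higher and 2 lower among 25 tested, or 12%. EBS (Solyc05g042030.3), a reader of histone H3 marks that delays flowering in Arabidopsis, was lower, at 35.4 ± 3.28 CPM in JMJ6-OE and 65.8 ± 18.6 CPM in WT (-0.89, adjusted p = 0.013). Another row with the symbol EBS, Solyc07g049210.3, named after its values were seen, was not called. It stood at 13.2 ± 2.55 CPM in JMJ6-OE and 10.9 ± 0.330 CPM in WT (0.28, adjusted p = 0.21). Solyc09g057900.2, described as PIE1, a subunit of the complex that installs H2A.Z, had 0 counts in every JMJ6-OE library and 9, 13 and 15 counts in WT (adjusted p = 0.0082). This is a minor row: 2 more abundant rows with the symbol PIE1, named after their values were seen, were not called. Solyc03g063220.2 stood at 28.9 ± 2.37 CPM in JMJ6-OE and 27.6 ± 3.3 CPM in WT (adjusted p = 0.71), and Solyc03g063210.3 at 13.1 ± 0.467 CPM in JMJ6-OE and 14.2 ± 0.716 CPM in WT (adjusted p = 0.45). Solyc09g066500.3, with the symbol CSB, was higher, at 153 ± 21.9 CPM in JMJ6-OE and 118 ± 5.03 CPM in WT (0.38, adjusted p = 0.041). That call was lost in 7 of 14 alternatives, with adjusted p of 0.0035 to 0.14, and in each fit without 1 library except that without JMJ6-OE replicate 1, in which 3 genes of the list were higher.

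Replication genes were called about as often as the average gene. Of 47 tested replication genes 11 were called higher and 5 lower, or 34.0%, near the 34.3% of all genes, with a median log2 fold change of 0.01. A further 73 of the 134 rows of that list had no count. Their summed CPM was 894, 874 and 844 in JMJ6-OE and 799, 841 and 819 in WT, without overlap, but as CPM of total counts, without TMM, it was 817 ± 74.4 in JMJ6-OE and 875 ± 46.0 in WT, with the direction turned round and overlapping groups. Without JMJ6-OE replicate 1 the list had 11 genes lower, and without JMJ6-OE replicate 2 or WT replicate 3 it had 6 higher. Fits without JMJ6-OE replicate 3 or WT replicate 1 gave 7 higher, and each of these last 4 fits gave 3 lower. Genes of the MCM helicase, which unwinds DNA at replication forks, were among those higher. MCM2 (Solyc11g040120.2) stood at 91.1 ± 3.0 CPM in JMJ6-OE and 50.0 ± 5.82 CPM in WT (SD, n = 3 each; 0.87, adjusted p = 0.0011). A row with the symbol CDT1A (Solyc06g008510.3), a licensing factor, stood at 5.52 ± 0.931 CPM in JMJ6-OE and 2.44 ± 0.0586 CPM in WT (1.18, adjusted p = 0.0043). Other rows with that symbol, named after their values were seen, had negative estimates and were not called. Solyc03g019960.3 stood at 2.79 ± 0.871 CPM in JMJ6-OE and 4.54 ± 0.394 CPM in WT, without overlap (-0.70, adjusted p = 0.068). For Solyc01g006140.3 the log2 fold change was -0.14 (adjusted p = 0.73). POL2A (Solyc11g067140.2), the catalytic subunit of DNA polymerase epsilon, was lower, at 28.9 ± 1.85 CPM in JMJ6-OE and 48.4 ± 3.8 CPM in WT (-0.75, adjusted p = 0.0017). The clamp PCNA (Solyc06g076660.3), named after its values were seen, was 16.1 ± 0.818 CPM in JMJ6-OE and 16.3 ± 1.62 CPM in WT and was not called.

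Mitosis and cell cycle control genes gave 3 calls higher and 4 lower among 19 tested, or 36.8%. Their sum was 257 to 298 CPM in JMJ6-OE and 226 to 241 CPM in WT, and the groups overlapped without TMM, at 238 to 264 in JMJ6-OE and 242 to 251 in WT as CPM of total counts. Genes called lower numbered 1 without JMJ6-OE replicate 2 and 2 without JMJ6-OE replicate 3, WT replicate 1 or WT replicate 3. E2FC (Solyc04g081350.3), of the E2F family that regulates S-phase genes, was higher at 2.32 ± 0.183 CPM in JMJ6-OE and 0.983 ± 0.155 CPM in WT (1.23, adjusted p = 0.0098). More abundant E2F rows, named after their values were seen, were called in both directions. Solyc01g007760.3, described as E2FA, was higher, at 35.8 ± 3.56 CPM in JMJ6-OE and 27.3 ± 2.45 CPM in WT (0.39, adjusted p = 0.033). Solyc11g068800.2, described as E2FB, was lower, at 11.9 ± 0.506 CPM in JMJ6-OE and 15.3 ± 0.665 CPM in WT (-0.36, adjusted p = 0.036). Solyc03g120440.2, described as a cyclin A but bearing the symbol GLYK, was also higher (1.83, adjusted p = 0.0032), and its identity is uncertain. An Aurora kinase locus (MSTRG.12404), of a kinase family that acts on H3 in mitosis, was lower. It stood at 0.565 ± 0.458 CPM in JMJ6-OE and 3.33 ± 0.662 CPM in WT (-2.53, adjusted p = 0.010). The more abundant Aurora rows, named after their values were seen, differed in direction. Solyc04g009330.3, with the symbol AUR3, was called lower (-0.54, adjusted p = 0.030). Solyc12g095870.2, described as Aurora-2, had a positive estimate without overlap and was not called (0.58, adjusted p = 0.064).

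Seed genes were counted because seed tissue could enter a pericarp sample. Of 15 tested seed genes 2 were called higher and 1 lower, or 20%, and 20 of the 56 rows had no count. Their sum was 250, 307 and 308 CPM in JMJ6-OE and 190, 196 and 196 CPM in WT, without overlap, also without TMM. The rows of highest level in it are described as LEA proteins. Solyc01g095150.3 stood at 132 ± 9.09 CPM in JMJ6-OE and 111 ± 3.21 CPM in WT. Solyc04g078750.3 stood at 78.2 ± 8.77 CPM in JMJ6-OE and 39.0 ± 7.88 CPM in WT. The tested vicilin-like row stood at 3.32 ± 0.337 CPM in JMJ6-OE and 2.56 ± 0.121 CPM in WT. Without JMJ6-OE replicate 1, 4 seed genes were called higher. An oleosin (Solyc06g060840.1), a coat protein of seed oil bodies, stood at 46.2 ± 19.2 CPM in JMJ6-OE and 5.31 ± 1.83 CPM in WT (3.11, adjusted p = 0.0030). The other tested oleosins, named after their values were seen, were not called and had negative log2 fold changes. These were -0.65 for Solyc08g078160.3, -0.35 for Solyc08g066040.1 and -0.12 for Solyc07g065985.1. LEA-14 (Solyc04g078750.3), of the desiccation-related LEA proteins, was higher (1.00, adjusted p = 0.0039). LEA14-A (Solyc01g095140.3), described as ethylene-responsive, was lower (-3.23, adjusted p = 3.7e-04). Solyc01g095150.3, with the same symbol and named after its values were seen, had a positive estimate without overlap. It was not called (0.25, adjusted p = 0.052). The part of dividing cells and of seed tissue in the histone values was not tested.

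**Figure D5:**
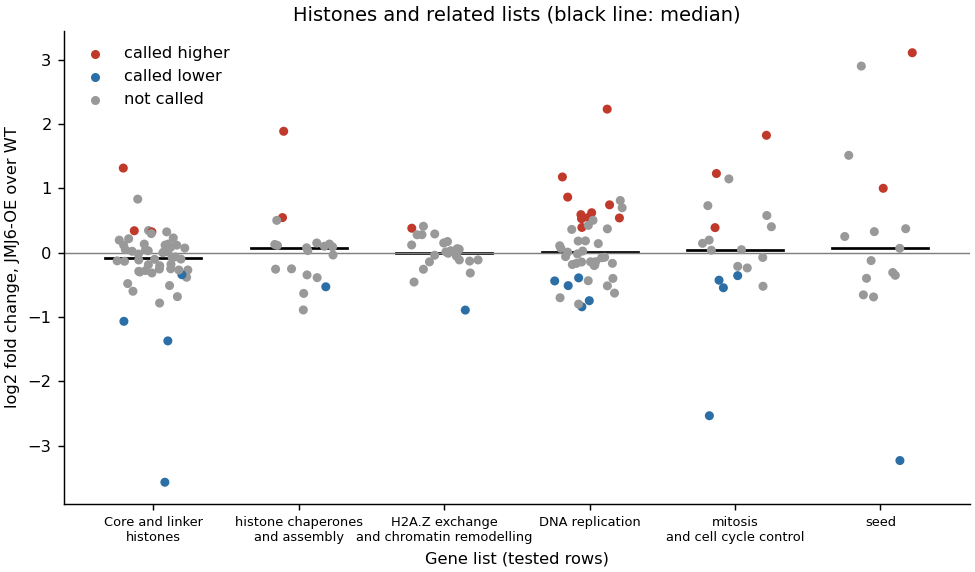
Log2 fold change of JMJ6-OE over WT of the tested genes of the histone set and of 5 related lists, 1 point per gene, with red for genes called higher, blue for genes called lower and black lines at the medians. One gene each of the remodelling and replication lists with a group at 0 is not plotted. Histone genes cluster near 0, with 7 calls among 53, while 16 of 47 replication genes are called.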

How the data were processed

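Pericarp mRNA libraries of JMJ6-OE and WT (3 each) were grouped by sample title. The deposited table holds raw counts and FPKM made by the authors for each library, per the file headers. It also holds the authors' comparison (log2 fold change, p-value and false discovery rate), by an unstated test. HISAT2 is named in the submitters' processing notes. For counter, genome build, annotation and strandedness: not given in the sources used here.

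Counts as deposited were tested across all genes, JMJ6-OE over WT, with genotype alone in edgeR 4.0.16 (R 4.3.3): TMM scaling, filterByExpr with a minimum count of 10, robust quasi-likelihood test and Benjamini-Hochberg adjustment at 0.05. The SE is the absolute log2 fold change over the root of F. FPKM served only for levels between genes and for ratios, since they are per length and carry no TMM scaling. Library totals were 28539410 to 36487547 counts, and 3 counts are 0.075 to 0.11 CPM. Such floors cover counting error only. Replicates differed by far more than sampling noise. Replicate numbers did not pair the libraries: correlations of same-numbered deviations were 0.094, 0.078 and -0.082.

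The histone set and the lists were chosen with earlier results of these data known. Lists matched words in descriptions, and 32 rows matched by letters only as chaperones and 1 in the mitosis list were removed. Named were each called histone gene, the 2 genes of highest mean CPM per class, rows described as something other than a histone, variants named in descriptions, and up to 3 called genes per list by adjusted p. Other genes were named after their values were seen. Classes and list sums were described without a test. Alternatives were RLE, upper-quartile and total-count scaling, DESeq2 1.42.0, limma-voom (limma 3.58.1), a filter of 1 count only, 1 CPM in 3 libraries, a block for the replicate number, and fits lacking 1 library each. Functions were tested on simulated data. Symbols RIN and E8, intended as ripening markers, were not analysed here. Figures were drawn with matplotlib 3.10.9.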

Additional observations from a re-analysis of the deposited data

How the results depend on the processing

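Of the genes named by the rule, none changed the sign of its log2 fold change under any alternative run. With total-count scaling 1 histone gene was called higher and 9 lower; with upper-quartile scaling 1 was higher. Leaving out each library in turn gave 1 to 4 higher and 2 to 6 lower, while 19.9% to 39.5% of all tested genes were called. With the replicate block 2 were higher and 5 lower, 6 of the 7 calls being shared: Solyc06g075960.1 (H4) was called lower (adjusted p = 0.013) and the call of Solyc06g084020.3 (H1) was lost. In the class sums that follow, H3 includes the H3.v1 rows. The log2 ratios of the class sums under total-count scaling were -0.13 for H1, -0.24 for H2A, -0.38 for H2B, -0.038 for H3 and -0.38 for H4, against 0.06, -0.05, -0.19, 0.15 and -0.20 with TMM. Over the leave-one-out fits they ran from -0.05 to 0.10 for H1, -0.15 to -0.01 for H2A, -0.26 to -0.17 for H2B, 0.04 to 0.20 for H3 and -0.31 to -0.12 for H4, so the H1 sum turned sign without WT replicate 3, the H1 sum also with upper-quartile scaling (-0.0070), and the H1 and H3 sums with total-count scaling.

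In the chaperone list, genes called lower numbered 3 with upper-quartile scaling, 5 with total-count scaling, 3 with DESeq2, 2 with limma-voom and 3 with the 1 CPM filter, and 0 to 2 leaving out a library (1 to 2 higher). In the remodelling list, 2 were higher with RLE scaling, DESeq2, limma-voom or the 1 CPM filter, 0 with total-count scaling or the replicate block and 0 to 3 leaving out a library; 1 was lower with the 1 CPM filter, and 2 to 3 leaving out a library. In the replication list, 8 were lower with upper-quartile scaling, total-count scaling or DESeq2, 6 were higher with total-count scaling, and leaving out a library gave 6 to 10 higher and 3 to 11 lower. Leaving out a library gave 2 to 3 higher and 1 to 5 lower mitosis genes and 2 to 4 higher seed genes. DESeq2 gave 4 higher seed genes, and no filter beyond 1 count gave 2 lower. Depth limits genes near 3 counts, such as HTR12 and the H3.v1-like rows.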
